A study of Drosophila melanogaster with 24 samples.

Results

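The response of whole female flies to dietary restriction was examined on the 12 arrays, of 24 in the series, whose flies received no RU486. They compare 6 pools on DR, the labels' name for restricted food, with 6 pools on AL, a diet the labels do not spell out. The arrays were chosen by their labels alone. Whole females, 13 days old and pooled about 35 to a sample, gave the RNA, and the DR pools had spent 10 days on DR food. The flies of every group shared the genotype +/+; Act5c-GS-Gal4/+; P{GD3482}v8105 /+. Act5c-GS-Gal4 is a GeneSwitch driver under the control of an actin promoter, which becomes active when flies are given the drug RU486, and P{GD3482}v8105 is the insertion it drives. From general knowledge of this collection of fly lines and not from the labels, the insertion carries an RNAi hairpin against ACC, which makes the malonyl-CoA used in fatty acid synthesis. Both diets without RU486 therefore carried the driver and the insertion uninduced. The design text calls the AL flies without RU486 wild type, but their strain label is that of all other groups. Whether the insertion was silent without RU486 was not measured here. The other 12 arrays, 6 pools on each diet with RU486, entered the fit, where they add to the estimate of the spread behind every p-value. They also set the brightness groups and the diet axis below, and the response on them was compared with that without RU486.

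Restricting the food of adult flies is known to lengthen life and to lower egg production in many laboratory strains. The best studied nutrient signals involved are insulin-like peptides and the kinase complex TORC1, which promotes growth and protein synthesis when amino acids are plentiful. Fat body, gut, muscle and ovary all contribute RNA to a whole fly. In such samples fewer cells of a type and less RNA per cell cannot be told apart.

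The array measured 16637 transcripts, 16617 of them with 8 probes, and a transcript's level is the mean log2 brightness of its probes. Identifiers are FlyBase transcript numbers. The table of genes used for naming gave a single symbol for 16 of them and several for 28, and 16593 stayed unnamed, so the markers of fat body, gut, muscle, ovary and nervous system could not be checked. The 28 are annotated there as carrying an upstream and a main reading frame with separate symbols, and they are counted but not named.

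The response was broad, and most of it was small. In limma with Benjamini-Hochberg adjustment over all transcripts, 10860 transcripts (65.3%) passed an adjusted p of 0.05. Of these 4946 (29.7%) were higher and 5914 (35.5%) lower on DR. A fit on the 12 arrays without RU486 alone gave 5262 rises and 6539 falls. Limited to transcripts above background (defined below) on at least 6 of the 24 arrays, the fit gave 4913 rises and 5015 falls. The excess of falls thus lay mostly among transcripts near background. Among the 10860 calls, on the deposited scale, the rises were the larger ones, with a median of 0.59 log2 against −0.35 for the falls. Changes of at least 1.5-fold were found for 2473 rises (14.9%) and 735 falls (4.42%). At 4-fold there were 71 rises and 18 falls, and at 8-fold 19 and 5. The median difference of all transcripts was −0.07 log2, with the 25th percentile at −0.26 and the 75th at 0.29. For 3998 transcripts (24.0%) all 6 DR pools lay above all 6 AL pools, and for 4032 (24.2%) all lay below.

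The probes of a called transcript mostly moved together, but the calls rest on the mean of these probes, which favours such agreement. Among the rises with 8 probes, 3484 of 4940 (70.5%) had all 8 probes higher on DR. Among the falls, 4173 of 5911 (70.6%) had all 8 lower. Over all transcripts with 8 probes, the called ones included, the probes agreed in sign for 48.6%.

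The balance of rises and falls moved with how the arrays were aligned. Centring each array on the median of its single transcript probes, called equal array medians below, moved the median difference of all transcripts to −0.18 log2. It gave 4101 rises and 8426 falls. Centring on the random control probes moved it to 0.09 and gave 6712 rises and 2813 falls. The median transcript level on DR arrays was nonetheless higher than on AL arrays, at 9.70 ± 0.01 against 9.58 ± 0.03 log2 (SD, n = 6, exact two-sided permutation p = 0.0022, the smallest this design allows). The difference in an array's median transcript level and the median of the transcripts' differences thus had opposite signs. Directions of small changes, and the sizes of rises set against those of falls, are relative to the deposited scale.

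The balance of rises and falls also varied with brightness. Transcripts were divided into 5 equal groups, from 1 (dim) to 5 (bright), by their level on the 12 arrays with RU486, whose levels do not enter the difference between the diets but whose spread enters its p-values. In group 1, 1082 transcripts (32.5%) fell and 340 (10.2%) rose. The median difference there was −0.11 log2, and 0.781% of the group's transcripts lay above the array's background on all AL pools against 16.3% on all DR pools. In group 2, at levels of 7.63 to 8.85 log2, it was 0.29, and 58.8% of transcripts rose against 13.6% that fell. In group 3, 40.7% rose and 41.6% fell. In group 4, from 10.26 to 11.29 log2, the median was −0.22 and 52.2% fell against 19.4% that rose. Group 5 had a median of −0.10. Rises of at least 1.5-fold numbered 890 in group 2, 936 in group 3 and 251 in group 5, and falls of that size 91, 374 and 58.

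**Figure D1:**
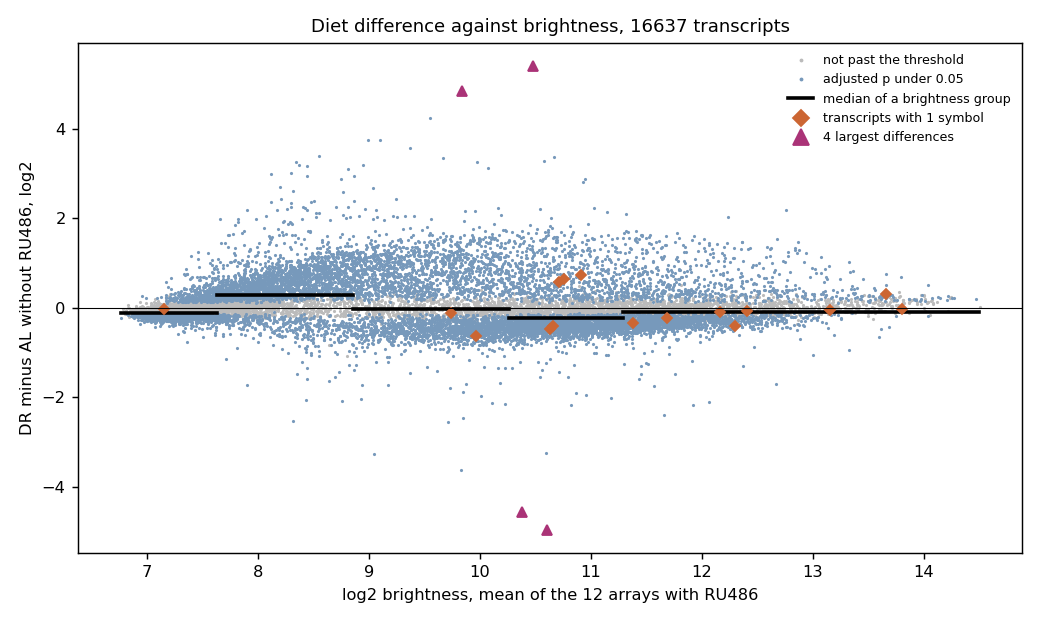
The difference between DR and AL without RU486 (vertical axis, log2) is plotted against brightness (horizontal axis, mean log2 value of the 12 arrays with RU486), with 1 point per transcript. Black lines are the medians of the 5 brightness groups, of which only that of group 2, at 0.29 log2, lies above 0, diamonds are the 16 transcripts with a symbol, and triangles are the 4 transcripts described by identifier.

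Measures of the arrays themselves also differed with diet. The control probes of random sequence had a median of 7.12 to 7.19 log2 on AL and of 6.98 to 7.02 on DR, without overlap. An array's background, the 95th percentile of sets of 8 averaged random probes, was 7.57 ± 0.08 log2 on AL and 7.37 ± 0.02 on DR (SD, n = 6). Against its own background, a DR array detected 14259 ± 86.4 transcripts and an AL array 13392 ± 242. Against a single common background of 7.47 log2 the order turned, with 13876 ± 94.2 on DR and 13938 ± 237 on AL (exact permutation p = 0.57). In the same way, 200 transcripts lay above background on 0 AL and all 6 DR pools by each array's own background, but 52 by the common one. The reverse pattern was seen in 2 and 25 transcripts.

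Signal also increased with probe number, more steeply on DR. Which end of a transcript the higher numbers lie at is not known here. The number in a probe's name orders the probes: neighbouring probes of a transcript whose numbers differ by less than 10 had similar brightness relative to the transcript (Pearson's r = 0.82 over 15900 pairs, as a description), and those 200 or more apart did not (r = 0.04). The mean slope was 0.051 ± 0.002 log2 per probe step on AL and 0.060 ± 0.004 on DR, without overlap (SD, n = 6). For the slope, the random probes, the number detected and the median level, the exact permutation p was 0.0022 each, and 0.0027 adjusted over the 5 measures tested. The part of the slope and of the random probes in the calls was not tested. The fit on the 4 lowest-numbered probes alone gave 4414 rises and 5148 falls, and on the 4 highest-numbered 4742 and 4822.

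**Figure D2:**
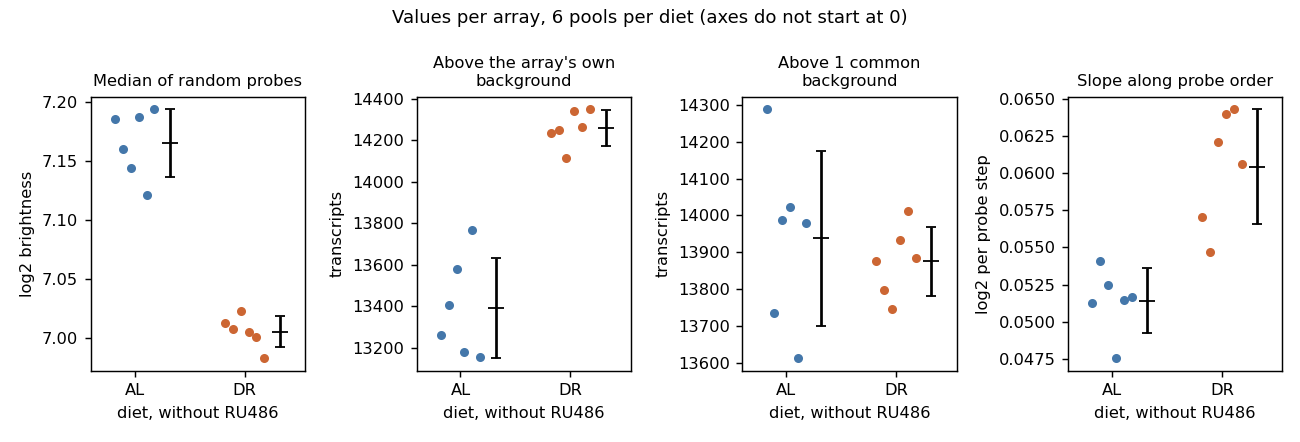
Each point is an array, with AL in blue, DR in orange and mean ± SD of 6 pools in black. From left to right the panels show the median of the random probes (log2), the transcripts above the array's own background, the transcripts above a common background and the slope of signal along the probes (log2 per step). The diets do not overlap except in the third panel.

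The 2 highest and the 2 lowest differences were those of 4 transcripts that the table used here does not name. They were chosen by these differences, among transcripts with a mean level over the 25th percentile, so their values are a description. On AL, FBtr0085029 measured 7.66, 7.91 and 9.26 log2 (lowest, median and highest of 6 pools), and on DR 13.02, 13.71 and 14.01. The lowest DR pool was thus far above the highest AL pool, and the difference was 5.40 ± 0.26 log2 (SE, adjusted p = 2.46e-14). All 8 of its probes were higher on DR, with the smallest difference, 3.25 log2, at the last probe.

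FBtr0077061 measured 7.30, 7.43 and 8.05 log2 on AL, where 2 of 6 pools were above background, and 11.61, 12.54 and 13.20 on DR. It passed the limit on mean level through its DR pools. The difference was 4.85 ± 0.22 log2 (SE, adjusted p = 8.08e-15), or at least 4.74 with AL pools below background set to it. All 8 probes were higher on DR. On AL the pools of both transcripts split in the same way. Pools 1 and 3 read 8.78 and 9.26 log2 for FBtr0085029 and 8.01 and 8.05 for FBtr0077061, while the other 4 AL pools lay at or below 7.91 and 7.46.

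Among the falls, FBtr0089324 was nearly constant on AL, at 12.92, 12.98 and 13.05 log2, and measured 7.28, 8.10 and 8.87 on DR. FBtr0089326 measured 12.38, 12.50 and 12.88 on AL and 7.25, 7.98 and 8.70 on DR. Both were above background in 5 of 6 DR pools, with pool 1 below it, and both were highest on DR in pool 3. The differences were −4.95 ± 0.22 and −4.56 ± 0.17 log2 (SE, adjusted p = 8.08e-15 and 1.62e-15). With DR pools below background set to it they were −4.94 and −4.54, which are lower bounds on the size of the falls. All 8 probes of each were lower on DR. Whether these 2 are transcripts of 1 gene was not looked up, since the table does not hold them.

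**Figure D3:**
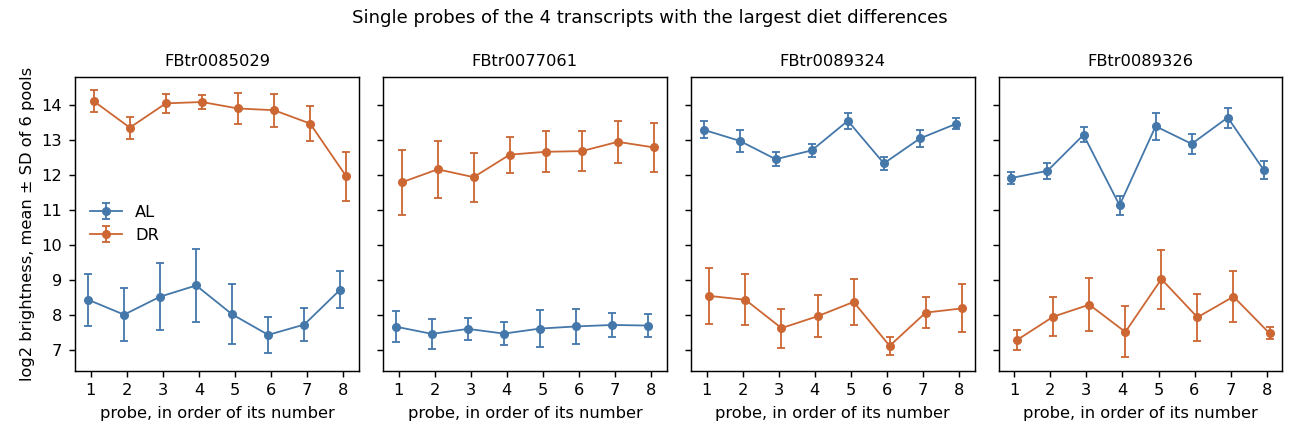
The mean ± SD over 6 pools of each of the 8 probes (log2 brightness, vertical axis) is shown in the order of the probe numbers for AL (blue) and DR (orange). In each of the 4 transcripts the means of every probe differ between the diets, by 3.25 log2 at the last probe of FBtr0085029. Some probes on the dim diet are at or below the background of whole transcripts, so the gaps drawn there may understate a difference.

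Among the 16 named transcripts there were 4 rises, 6 falls and 6 that missed the threshold, against 29.7% rises and 35.5% falls over all transcripts. Their median difference was −0.09 log2 against −0.07 over all. The pools of the diets did not overlap for 8 of the 16, against 48.3% of all transcripts. Of 359 genes in 28 lists of pathways and cell type markers, 13 were among the 16, spread over 8 lists. They are described below by role.

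The fatty acid transport protein Fatp1 carries fatty acids into cells and activates them. It rose on DR. The AL pools measured 10.29, 10.52 and 10.73 log2 (lowest, median, highest) and the DR pools 10.80, 11.10 and 11.29, so the groups did not overlap although the highest AL and the lowest DR pool were close. The difference was 0.58 ± 0.08 log2 (SE, adjusted p = 3.89e-07), a 1.49-fold rise. All 8 probes were higher, by 0.77 on average over the 4 lowest-numbered and by 0.39 over the 4 highest-numbered. Fatp1 was the single named member of 9 genes of fatty acid uptake and activation.

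Of 15 genes of TORC1 signalling and its GATOR regulators, Wdr24 and mio were named. Both encode subunits of GATOR2, which keeps TORC1 active by opposing its inhibitor GATOR1. Wdr24 fell, from 10.01, 10.15 and 10.40 log2 on AL to 9.34, 9.58 and 9.74 on DR, without overlap. The fall of 0.62 ± 0.10 log2 (SE, adjusted p = 3.91e-06) was seen in all 8 probes, from −0.29 to −1.05. The level of mio ranged from 9.56 to 9.83 log2 on AL and from 9.54 to 9.65 on DR, and its difference of −0.12 ± 0.08 log2 did not pass (adjusted p = 0.18). Its probes did not move together, with 2 higher and 6 lower on DR. After quantile normalization mio passed, at −0.22 log2 (adjusted p = 0.012), as it did with array medians set equal (−0.23, adjusted p = 0.010) and without AL pool 1 and DR pool 3 of the RU486 arrays, which stand apart from their groups (−0.12, adjusted p = 0.041).

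Genes of the cell's surroundings and its membrane skeleton gave the largest rises with a name. LanA encodes the alpha chain of laminin in basement membranes and was the named member of 9 matrix genes. Its AL pools measured 10.48, 10.72 and 10.88 log2 and its DR pools 11.35, 11.41 and 11.53, a gap wider than the spread within either diet. The rise was 1.65-fold, at 0.72 ± 0.08 log2 (SE, adjusted p = 2.13e-08), and 8 of 8 probes showed it. The spectrin gene alpha-Spec encodes a rod-shaped protein of the network under the plasma membrane. It went from 10.43, 10.65 and 10.82 log2 on AL to 11.18, 11.24 and 11.41 on DR. The pools did not overlap, and the rise was 0.64 ± 0.12 log2 (SE, adjusted p = 4.49e-05), with single probes between 0.25 and 0.88.

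Of 20 chromatin genes, 4 were named, of which 1 rose, 2 fell and 1 did not pass. His4r is a histone H4 gene transcribed outside S phase. It rose by 0.31 ± 0.10 log2 (SE, adjusted p = 0.0068), from 13.48, 13.55 and 13.85 on AL to 13.83, 13.90 and 13.98 on DR. AL pool 6, the highest, reached into the DR range. Quantile normalization ended the call, at 0.18 log2 (adjusted p = 0.071), as did setting the array medians equal (0.20, adjusted p = 0.073). All 8 probes were higher, but whether they separate His4r from the other H4 genes, which encode the same protein, was not tested.

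HDAC3, a histone deacetylase, fell by 0.41 ± 0.07 log2 (SE, adjusted p = 1.74e-05). AL pools lay between 10.58 and 10.93 log2 around a median of 10.73, and DR pools between 10.17 and 10.50 around 10.31. All 8 probes were lower, by −0.07 to −0.59. SuUR, which slows replication of heterochromatin in polytene nuclei, fell by 0.34 ± 0.08 (SE, adjusted p = 0.0010) in 7 of 8 probes. Its pools ran from 11.24 to 11.59 log2 on AL and from 10.81 to 11.31 on DR, so the diets overlapped, and 4 DR pools lay below all AL pools. The call was lost after centring on the random probes, at −0.18 log2 (adjusted p = 0.069). The chromatin remodeller kis measured 12.39 to 12.54 log2 on AL and 12.26 to 12.48 on DR, and did not pass (−0.08 ± 0.06, adjusted p = 0.22). Its 4 lowest-numbered probes averaged 0.02 and its 4 highest-numbered −0.18, which passed when fitted alone (adjusted p = 0.049). kis also passed with array medians set equal (−0.19, adjusted p = 0.0074) and after quantile normalization (−0.14, adjusted p = 0.046).

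The nucleolar protein gene sle, the named member of 13 genes of the nucleolus and ribosome biogenesis, measured 12.27, 12.36 and 12.45 log2 on AL and 11.82, 11.97 and 12.10 on DR. It fell by 0.41 ± 0.06 log2 (SE, adjusted p = 5.18e-06) without overlap, although 1 of its 8 probes changed by only −0.01.

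Both named genes of ubiquitin transfer, of 12, did not pass. Uba1, the enzyme that activates ubiquitin, measured 13.02 to 13.32 log2 on AL and 13.04 to 13.14 on DR. Its difference was −0.06 ± 0.05 log2 (adjusted p = 0.34), with 4 probes higher and 4 lower. Quantile normalization brought Uba1 past the threshold as a fall (−0.15, adjusted p = 0.012), as did equal array medians (−0.17, adjusted p = 0.023). rdx, an adaptor that brings targets such as Cubitus interruptus to a Cullin3 ligase, ranged from 13.64 to 14.20 log2 on AL and from 13.57 to 13.97 on DR (−0.03 ± 0.10, adjusted p = 0.77). NaPi-III, of a family of sodium-dependent phosphate transporters, also did not pass (−0.10 ± 0.08, adjusted p = 0.26), except with array medians set equal (−0.21, adjusted p = 0.032).

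The last 3 named transcripts are in no list. fend, which has a role in motor axon guidance in the embryo, fell by 0.47 ± 0.15 log2 (SE, adjusted p = 0.0069). It ranged from 10.60 to 10.96 on AL and from 9.93 to 10.51 on DR, without overlap, and all 8 probes were lower. Its call was lost after centring on the random probes (−0.31 log2, adjusted p = 0.072) and on the 4 highest-numbered probes alone (adjusted p = 0.061). CG16974 fell by 0.23 ± 0.05 log2 (SE, adjusted p = 0.00049), and its DR pools, at 11.55 to 11.63, lay below all AL pools, at 11.73 to 11.97. This call too was lost after centring on the random probes (−0.07, adjusted p = 0.32). CG31178 was above background on 0 of 12 arrays and has no measured difference.

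**Figure D4:**
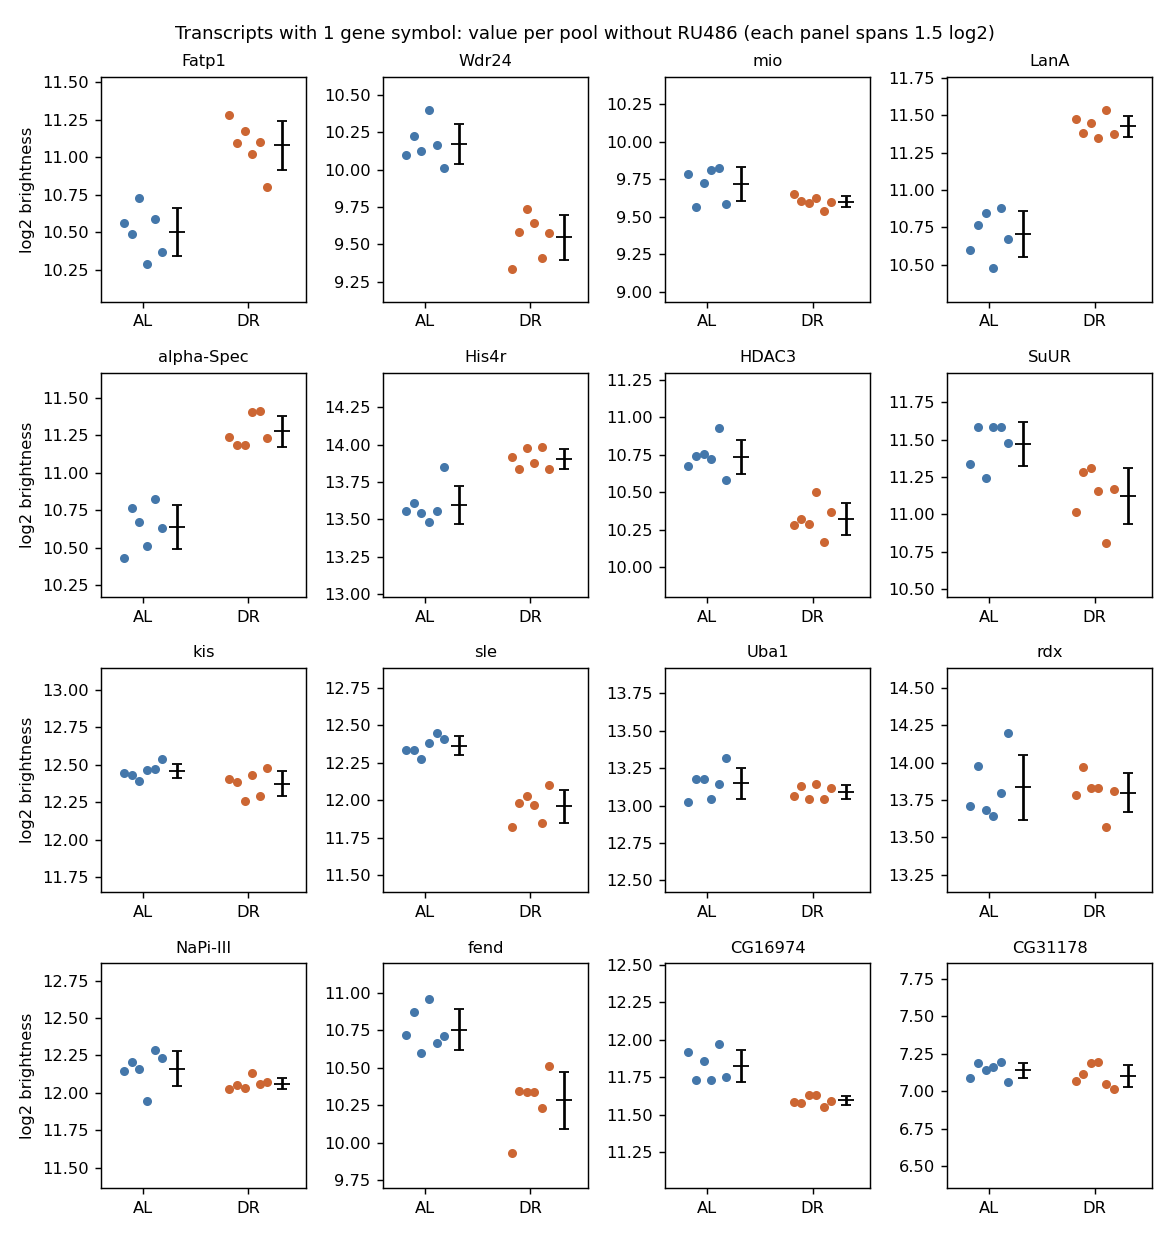
Each panel shows a transcript with 1 gene symbol, with AL pools in blue and DR pools in orange (log2 brightness, vertical axis) and mean ± SD of 6 pools in black. All panels span the same range of 1.5 log2, so that the separation of LanA and alpha-Spec can be set against the overlap of Uba1 and rdx.

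The 28 transcripts with several symbols were above background on all 12 pools. Of these 14 fell, 2 rose and 12 did not pass, against 35.5% falls and 29.7% rises over all transcripts, with a median difference of −0.17 log2 against −0.07 over all transcripts. The falls ran from −0.13 to −0.81 log2 and the rises were 1.04 and 1.13. The pools of the diets did not overlap for 15 of the 28, near the 48.3% of all transcripts. With RU486 4 of them rose and 13 fell, against 24.5% and 24.3% of all transcripts.

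The pools of each diet varied to a like degree. A transcript's SD over pools had a median of 0.108 log2 on AL and 0.111 on DR. The SD of a pool's deviations from its group mean over all transcripts was 0.101 to 0.140 on AL and 0.101 to 0.155 on DR (exact permutation p = 0.32, adjusted 0.32). Pools nevertheless differed in their position along the diet difference. The position is taken over all transcripts, and the part of the differing array measures in it was not tested. On an axis set by DR minus AL on the arrays with RU486, where 0 is the AL mean of the arrays without it and 1 the size of the response with RU486, DR pools lay between 1.01 (pool 3) and 1.33 (pool 5), with a mean of 1.17 ± 0.12 (SD, n = 6). AL pools lay between −0.04 (pool 2) and 0.10 (pool 3). Without both RU486 arrays that stand apart, the DR mean was 1.16.

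The strongest rises tended to order the pools alike, and the strongest falls ordered them in part differently. Of 20 transcripts that were at least 4-fold higher on DR with RU486, a choice that uses none of the 12 arrays, AL pool 3 was among the 2 highest AL pools for 19 and AL pool 1 for 14. Pool 3 lay a median of 0.36 log2 above the AL mean. DR pools 3 and 6 were among the 2 lowest DR pools for 14 and 13, and DR pool 5 for 0. For 15 transcripts at least 4-fold lower with RU486, DR pool 3 was the highest DR pool for 11, a median of 0.49 log2 above the DR mean. AL pool 3 was among the 2 lowest AL pools for only 2 of these 15, so it lay toward DR for the rises and not for the falls. DR pool 5 was among the 2 highest DR pools for 8 of the 15, and DR pool 6 for 3. AL pool 4 was among the 2 lowest AL pools for 10 of the 15, but among the 2 highest for 0 of the 20. These transcripts can share tissues and genes and are not independent of each other.

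The response without RU486 was compared with that with RU486 by testing the difference of both responses. With RU486, 8116 transcripts (48.8%) passed for diet, 4074 higher (24.5%) and 4042 lower (24.3%). Of 456 transcripts at least 2-fold higher on DR with RU486, 427 (93.6%) were at least 2-fold higher without it, but these were 40.8% of the 1047 found without RU486. The difference of the responses passed for 1084 transcripts (6.52%). The difference was above 0 for 530 and below 0 for 554 of them. Of the 1084, 473 were called as rises without RU486, 558 as falls and 53 as neither. The difference was above 0 for 467 of the 473 rises and below 0 for 536 of the 558 falls. Both tests use the arrays without RU486, which favours such agreement. The count of 1084 became 620 without DR pool 5, the pool farthest along the axis, and 1597 without both RU486 arrays that stand apart.

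In limma, 0 of the 16 named transcripts passed for the difference of the responses, and 4 had an unadjusted p under 0.05, against 4065 of all 16637 transcripts, a like share. HDAC3 was nearest to the threshold, at −0.41 ± 0.07 log2 without and −0.09 ± 0.07 with RU486, a difference of −0.32 ± 0.10 (SE, adjusted p = 0.0502). It passed in 5 alternatives and missed in 18. Among the 5 were quantile normalization (adjusted p = 0.040) and array weights (adjusted p = 0.031). When each pool was left out in turn, its adjusted p ranged from 0.036 to 0.10. For alpha-Spec the responses were 0.64 ± 0.12 and 0.13 ± 0.12 log2, a difference of 0.51 ± 0.17 (SE, adjusted p = 0.065). It passed in 3 alternatives and missed in 20. Among the 3 were quantile normalization (adjusted p = 0.049) and array weights (adjusted p = 0.044). Without both RU486 arrays that stand apart the difference was 0.30 for alpha-Spec (adjusted p = 0.070) and −0.31 for HDAC3 (adjusted p = 0.054). For LanA the difference was 0.25 ± 0.11 (adjusted p = 0.16) and for CG16974 −0.21 ± 0.07 (adjusted p = 0.088). The responses of Fatp1, at 0.58 and 0.52 log2, differed by 0.06 ± 0.11 (SE, adjusted p = 0.80).

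**Figure D5:**
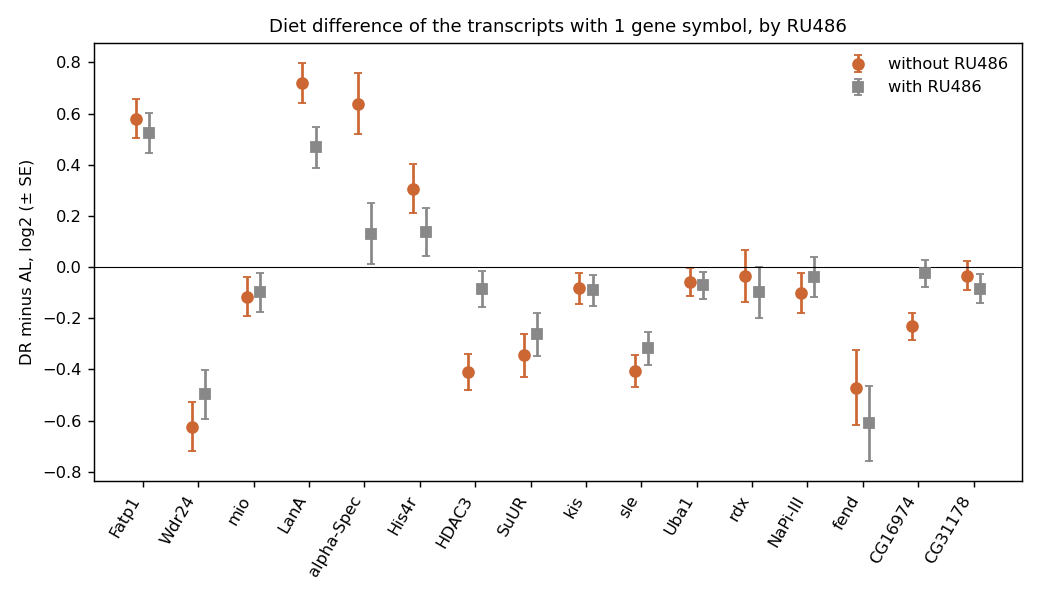
The difference between DR and AL (log2 ± SE of the fit, 6 pools per group) is shown for the 16 transcripts with a symbol without RU486 (orange circles) and with it (grey squares). The widest gaps are those of alpha-Spec, at 0.64 and 0.13 log2, and HDAC3, at −0.41 and −0.09.

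By identifier, FBtr0073333 had the largest excess of the response without RU486. The choice was among called differences with a mean level over the 25th percentile. FBtr0073333 passed that limit through its DR pools, with means of 10.83 log2 without and 9.07 with RU486, against 7.58 and 7.61 on AL. It measured 7.45, 7.50 and 7.80 log2 on AL and 10.31, 10.65 and 11.72 on DR without the drug, a rise of at least 3.20, with 3 of 6 AL pools above background. With RU486 the AL pools were at 7.47 to 7.85 and the DR pools spread from 7.23 to 10.09. The lowest, DR pool 4, was below background, and the next was at 8.48. No fit left DR pool 4 with RU486 out. The responses differed by 1.80 ± 0.45 log2 (SE, adjusted p = 0.019), or by 1.73 with pools below background set to it. Without both RU486 arrays that stand apart the difference was 1.87 (adjusted p = 0.017).

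FBtr0080237 was at the other end. Without RU486 it measured 8.73, 9.06 and 9.27 log2 on AL and 8.87, 9.65 and 10.00 on DR, with overlap in pool 2 of DR, and rose by 0.52 ± 0.16 (SE, adjusted p = 0.0058). Its first 3 probes, at means of 6.87 to 7.81 log2 on either diet, differed by −0.09 to 0.19, and the other 5 by 0.65 to 0.93. On the 4 lowest-numbered probes alone the call was lost (0.19 log2, adjusted p = 0.17). With RU486 it was above background on 0 of 6 AL pools, so its response there is at least 1.64 log2. The responses differed by −1.43 ± 0.22 (SE, adjusted p = 0.0019), or by −1.12 with those pools set to background, and by −1.45 with AL pool 1 and DR pool 3 of the RU486 arrays left out (adjusted p = 0.0011).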

How the data were processed

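The deposited table holds log2 brightness of 137090 probes on 24 one-colour (Cy3) NimbleGen arrays. The log2 scale was inferred from the range of 6.09 to 16.51. The submitters' processing notes name limma, without a version. The sources used here do not give background correction, normalization or array build, and no coordinates are printed. Per the labels' protocols, 150 ng of total RNA was amplified, and extraction, amplification and labelling were randomized over groups. Slide and scan are unknown here, and no batch could be entered. The labels do not say that pools came from separate cultures, so p-values measure the spread between these pools, whose number limits the precision.

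Here, 4091 random probes were set aside and the 8 probes of a transcript averaged. An array's background was taken from 511 averaged sets of 8 random probes (95th percentile). limma 3.58.1 in R 4.3.3 fitted 1 mean per group over all 24 arrays (lmFit, eBayes), and p-values were adjusted by Benjamini-Hochberg over 16637 transcripts at 0.05. The procedure was tested on simulated data. Single values per array were compared by exact two-sided permutation. Values given as at least so much have pools below background set to it. Transcript numbers were looked up in the RefSeq gene table of Release 6. Named were the 16 transcripts with 1 symbol and the 2 highest and 2 lowest called diet differences (mean level over the 25th percentile). The highest and the lowest called difference between the responses were named under the same limit on mean level. Members, lists and tests were chosen with earlier results of these data known. Pool number was not used to pair the arrays in the main fit. Deviations of same-numbered AL and DR pools correlated from −0.13 to 0.01. Such values cannot show whether these pools shared a culture or a batch.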

Additional observations from a re-analysis of the deposited data

Results flagged for a closer look

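For His4r on AL without RU486, pool 6 stood apart at 13.85 log2, with its gap to the next pool at 0.652 of the group's range, above the limit of 0.625 for 6 pools. It was the only such case among 52 sets of 6 pools examined, of which chance marks about 1 in 20. Without that pool His4r rose by 0.36 log2 (adjusted p = 0.0026).

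By the test of the difference, the responses without and with the drug were unequal for 1084 transcripts. Among those named, the difference (without minus with RU486) was 1.80 log2 for FBtr0073333 (adjusted p = 0.019) and −1.43 log2 for FBtr0080237 (adjusted p = 0.0019). Both were chosen by this difference, so these values are a description.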

How the results depend on the processing

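Of the 10 called transcripts with a symbol, 6 (Fatp1, LanA, alpha-Spec, Wdr24, sle and HDAC3) kept their call and direction in all 24 alternatives run for each. The total of 10860 transcripts past the threshold became 3208 at 1.5-fold or more (2473 rises and 735 falls), and the falls became 2813 after centring on the random probes. When each of the 12 pools was left out in turn, the total ranged from 10277 to 10637, the rises from 4746 to 4914 and the falls from 5459 to 5752. The 1084 differences between the responses ranged from 620 (without DR pool 5) to 1161. They became 2281 with array weights, 143 at an adjusted p under 0.01 and 249 at 1.5-fold or more. The excess of detected transcripts on DR, 867.5 per array, ranged from 821 to 942 with a pool left out and turned to −62.2 under the common background, which was added after seeing the data. The difference of the random probes ranged from −0.169 to −0.154 log2 and that of the median transcript level per array from 0.105 to 0.122. Pool number as a replicate block gave 10681 calls for diet (4903 rises and 5778 falls) and 972 for the difference between responses, and changed no call of a named transcript. No pool correlated best with its own number.

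Signs turned only for transcripts that did not pass, and none passed with the other sign. After centring on the random probes the values were 0.060 log2 for NaPi-III, 0.044 for mio, 0.077 for kis, 0.13 for rdx, 0.13 for CG31178 and 0.10 for Uba1. With medians of probes NaPi-III was at 0.050 and Uba1 at 0.061, and after quantile normalization CG31178 was at 0.016. In the fits on 4 probes, added after seeing the data, mio was at 0.0086 and rdx at 0.061 on the highest-numbered and kis at 0.017 on the lowest-numbered. With a pool left out, rdx ranged from −0.073 to 0.038 and was above 0 without AL pool 6 and without DR pool 5. The causes were not tested.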
